A study of Mus musculus with 7 samples.

Results

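The genes described here are the machinery that lets a cell leave G1: the D cyclins Ccnd1, Ccnd2 and Ccnd3, the kinases they activate, Cdk4 and Cdk6, and 5 inhibitors of cyclin-dependent kinases, Cdkn2c, Cdkn2d, Cdkn1a, Cdkn1b and Cdkn1c. They were chosen by name as control genes of progenitor quiescence, and all 10 were found among the 35976 symbols of the gene count table. RNA was read in lineage-negative fetal liver cells of C57BL/6 embryos (E14.5), the stem and progenitor fraction left after magnetic removal of cells with mature blood markers. The 4 knockout libraries had the genotype CD45.2(+) Vav1-iCre Brd9fl/fl, and the 3 control libraries were CD45.2(+) Brd9fl/fl. Brd9 codes for a bromodomain protein that is part of non-canonical BAF, a remodeller of chromatin. Both groups thus carried floxed Brd9 alleles, from matings of Brd9fl/fl males with Vav1-iCre; Brd9fl/fl females. The recombinase, driven by the Vav1 promoter of blood cells, was in the knockouts only, so its own effect and that of Brd9 loss cannot be told apart. The labels do not say whether a library was 1 embryo or a pool, and p-values then measure no more than how these libraries spread, which may be technical.

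D cyclins are made in response to growth factors and bind CDK4 or CDK6. The active kinase phosphorylates the retinoblastoma protein and its relatives, which frees E2F factors to switch on genes for DNA replication. INK4 inhibitors, among them the products of Cdkn2c (p18) and Cdkn2d (p19), bind CDK4 and CDK6 directly, while the CIP/KIP inhibitors made by Cdkn1a (p21), Cdkn1b (p27) and Cdkn1c (p57) block CDK2 complexes and can hold stem cells out of cycle. Mouse embryos that lack both Cdk4 and Cdk6, or all D cyclins, form too few blood cells in the fetal liver.

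Totals ran from 18748885 to 21861876 counts in the knockout libraries and from 21831430 to 23571878 in the controls. Brd9 held 8.57, 11.9, 13.2 and 12.2 CPM in the knockouts, against 30.5, 32.2 and 36.4 CPM in the controls, so each library lay on the side of its label. Xist, which marks embryos with an inactive X, stood at 740 CPM in knockout replicate 2 and at 756 and 802 CPM in control replicates 1 and 3, and at 0.372 CPM or less in the other 4 libraries. CPM are counts per 1000000 counts of the library after TMM scaling. A gene passed the test where its edgeR quasi-likelihood p, adjusted by Benjamini-Hochberg over the 14679 genes tested, was under 0.05. Of all genes tested 82 passed (0.559%), 2 of them higher in the knockouts (0.0136%) and 80 lower (0.545%).

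None of the 10 genes passed that test. Cdk6 had the smallest p and was lower in the knockouts, Ccnd3 came next and was higher, and the groups did not overlap in these 2 alone. Over all tested genes 11.2% had groups that did not overlap. The same 2 of 10 genes had an unadjusted p under 0.05, where 10.9% of all tested genes did. The median log2 fold change of the 10 genes was 0.07, with 6 higher and 4 lower, beside 0.01 over all tested genes. DESeq2, run on the same counts, called 1 of the 10, Cdk6, where it called 2.19% of the genes it gave an adjusted p. Cdk6 was also the 1 of 10 called by edgeR with no filter on low counts, where 0.937% of all genes were. With the replicate number as a block it was again the 1 of 10 called, where 0.824% of all genes were. Knockout replicate 4 has no control of its number, so the block fit takes nothing on the group difference from that library.

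**Figure D1:**
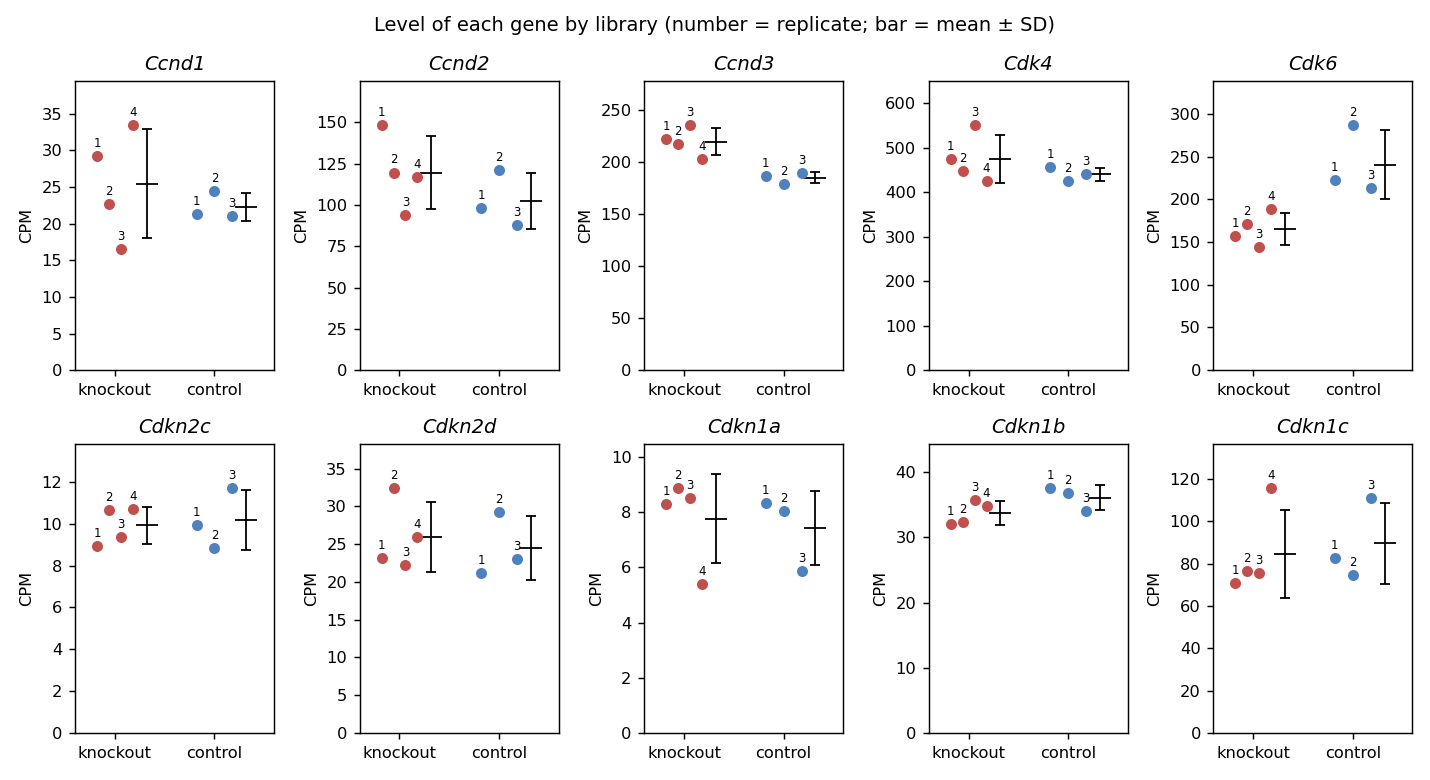
Level of each gene in every library, in CPM on axes that start at 0, with knockouts in red on the left and controls in blue on the right. Numbers are replicates and bars are the mean ± SD. Cdk6 lies between 144 and 189 CPM in the 4 knockouts, below the 213 to 287 CPM of the 3 controls, and Ccnd3 at 203 CPM or more in the knockouts, above every control.

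CDK6 is the partner of D cyclins that is most tied to blood progenitors, where it also acts on transcription. The gene lies at chr5:3341485-3531008 on the plus strand (GRCm38, GENCODE M21, as for the genes below). Cdk6 had 157, 171, 144 and 189 CPM in the knockout libraries, against 222, 287 and 213 CPM in the controls. Every knockout lay below every control, and control replicate 2 stood well above the other controls. The mean was 165 ± 19 CPM in the knockouts and 241 ± 40 CPM in the controls (SD, n = 4 and 3), 68.7% of control. The log2 fold change was -0.54 (SE 0.13, 95% interval -0.83 to -0.26; edgeR adjusted p = 0.11), which places the level of the knockouts between 0.564 and 0.835 of control. In the authors' deposited table, made with DESeq2 from the same libraries, Cdk6 has a log2 fold change of -0.54 and an adjusted p of 0.0095, a call that edgeR did not make after its filter on low counts. Without control replicate 2 and knockout replicate 3, the libraries whose counts differed most from others of their group, the log2 fold change was -0.34 (adjusted p = 0.18). Over all 16 alternatives the adjusted p of Cdk6 ran from 0.0095 to 0.32.

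Cdk6 was lower at either level of Xist, which was fixed in advance because every knockout lay below every control. Among the libraries with high Xist it stood at 171 CPM in the knockout and at 213 and 222 CPM in the controls. Among those with low Xist it stood at 144 to 189 CPM in the knockouts and at 287 CPM in the control.

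CDK4 is the other kinase of D cyclins and is present in most dividing cells. Cdk4, at chr10:127063534-127067920, had 475, 448, 551 and 426 CPM in the knockouts, against 456, 426 and 441 CPM in the controls. The groups overlapped, with knockout replicate 3 above all other libraries. The mean was 475 ± 55 CPM in the knockouts and 441 ± 15 CPM in the controls (SD, n = 4 and 3; log2 fold change 0.11, 95% interval -0.12 to 0.33, adjusted p = 0.74). The interval thus reaches from 0.921 to 1.26 of control, and it lies wholly above that of Cdk6.

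The ratio of the 2 kinases lay apart in the groups. Compared per kilobase of exon, Cdk4 was 17.0, 14.7, 21.4 and 12.6 times the level of Cdk6 in the knockouts, against 11.5, 8.34 and 11.6 times in the controls. These ratios did not overlap, although knockout replicate 4 came close to the controls. They are not independent of Cdk6, whose own groups lay apart. The sum of both kinases was 246 ± 25 CPM per kilobase in the knockouts and 236 ± 5 in the controls (SD), since Cdk4 makes up most of it.

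The promoters of the kinases are shown because the intervals of Cdk6 and Cdk4 lay apart, although neither gene passed the test. A link between promoter letters and levels was not tested. Sequences are from RefSeq on GRCm38.p6 and run from 250 bases before to 50 bases after an annotated start. They were found for 7 of the 10 genes and not for Ccnd1, Ccnd2 and Cdkn1c. Capitals mark CACGTG, the E-box that MYC and related factors can bind, which reads the same on both strands. The Cdk6 window is chr5:3343643-3343942 and the Cdk4 window chr10:127063285-127063584, both on the plus strand. The Cdk4 window spans the first base of its gene. The Cdk6 window lies inside its gene, which begins at 3341485 in GENCODE, and the counts do not say which start was used.
Cdk6: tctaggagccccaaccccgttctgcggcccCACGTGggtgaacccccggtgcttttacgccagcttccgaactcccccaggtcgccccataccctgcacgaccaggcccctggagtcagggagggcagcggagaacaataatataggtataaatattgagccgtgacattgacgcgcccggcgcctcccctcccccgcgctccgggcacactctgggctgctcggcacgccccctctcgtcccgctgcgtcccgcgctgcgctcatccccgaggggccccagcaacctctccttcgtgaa
Cdk4: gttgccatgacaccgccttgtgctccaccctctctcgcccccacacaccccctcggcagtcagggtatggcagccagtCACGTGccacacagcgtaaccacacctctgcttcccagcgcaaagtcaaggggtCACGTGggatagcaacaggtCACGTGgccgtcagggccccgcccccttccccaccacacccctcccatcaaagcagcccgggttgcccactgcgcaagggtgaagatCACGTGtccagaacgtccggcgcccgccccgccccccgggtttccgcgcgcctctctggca
The Cdk4 window holds 4 E-boxes, at -172, -118, -98 and -11 from the start, and the Cdk6 window 1, at -220. At least 1 E-box is in 7.15% of the 32851 promoters in the table and 4 or more are in 0.0244%, or 8 promoters. The TATA letters TATAAA were matched in the Cdk6 window at -103 from the start and in none of the other windows of these genes. They are in 13.6% of all promoters, and the match in the Cdk6 window does not overlap the E-box. CCAAT (37.4% of all promoters), the GATA letters AGATAA (11.2%), the PU.1 letters GAGGAAG (13.6%) and the RUNX letters TGTGGT (16.8%) were searched on both strands as well. None of these 4 was in the Cdk6 window, and the Cdk4 window held the RUNX letters 2 times. A match is a description of the letters, not a bound site.

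Of the D cyclins, Ccnd3 is the form most used by blood cells, among them erythroid and lymphoid precursors. Ccnd3, at chr17:47505051-47599691, had 222, 217, 235 and 203 CPM in the knockouts, against 187, 179 and 189 CPM in the controls. Every knockout lay above every control. The mean was 219 ± 13 CPM in the knockouts and 185 ± 5 CPM in the controls (SD, n = 4 and 3), with a log2 fold change of 0.25 (SE 0.08, 95% interval 0.08 to 0.42, adjusted p = 0.25). In the authors' deposited table it is 0.25, with an adjusted p of 0.16. Since the groups did not overlap, Ccnd3 was bound to be higher at either level of Xist as well. Where Xist was high, Ccnd3 had 217 CPM in the knockout and 187 and 189 CPM in the controls. Where Xist was low, Ccnd3 had 203 to 235 CPM in the knockouts and 179 CPM in the control.

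Ccnd3 has annotated starts far apart, and the counts do not say which was used. Both windows, on the plus strand, are shown with the GC box in capitals, GGGCGG or CCGCCC on the other strand, which Sp1 and its relatives can bind: chr17:47504801-47505100 for the upstream start and chr17:47593217-47593516 for the downstream one.
Ccnd3 upstream: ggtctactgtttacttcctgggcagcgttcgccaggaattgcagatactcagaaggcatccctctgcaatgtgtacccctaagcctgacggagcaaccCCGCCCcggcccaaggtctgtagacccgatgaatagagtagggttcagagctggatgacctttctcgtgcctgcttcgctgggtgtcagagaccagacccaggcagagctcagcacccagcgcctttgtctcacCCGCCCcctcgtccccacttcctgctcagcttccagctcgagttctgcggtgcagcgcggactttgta
Ccnd3 downstream: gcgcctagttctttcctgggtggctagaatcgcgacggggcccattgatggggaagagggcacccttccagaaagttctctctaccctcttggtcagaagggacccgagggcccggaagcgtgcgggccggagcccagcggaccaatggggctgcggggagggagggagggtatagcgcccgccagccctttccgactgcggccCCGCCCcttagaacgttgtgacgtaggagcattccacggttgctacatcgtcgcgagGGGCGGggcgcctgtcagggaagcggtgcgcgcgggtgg
Each window holds 2 GC boxes. The motif is in 35.7% of all promoters, and among these genes it was found in every window but those of Cdk6, of the Cdkn1a upstream start and of the Cdkn2c downstream start. The E2F letters TTCCCGC, searched on both strands, were found only in the upstream window of Cdkn2c and are in 4.6% of all promoters.

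Ccnd2 is the D cyclin that responds most to cytokines in early blood cells. The gene, at chr6:127125162-127152193, had 148, 120, 93.8 and 117 CPM in the knockouts, against 98.1, 121 and 87.8 CPM in the controls. The groups overlapped, with knockout replicate 1 alone above all controls. The means were 120 ± 22 and 102 ± 17 CPM in knockouts and controls (SD, n = 4 and 3; log2 fold change 0.22, 95% interval -0.13 to 0.57, adjusted p = 0.65). Without knockout replicate 1 the log2 fold change was 0.099, without control replicate 2 it was 0.36, and without that library and knockout replicate 3 it was 0.46 (adjusted p = 0.14, the lowest of the alternatives, which reached 0.91).

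Ccnd1, the D cyclin of epithelial, liver and stromal cells, had 29.2, 22.7, 16.5 and 33.4 CPM in the knockouts, against 21.3, 24.4 and 21.1 CPM in the controls. The knockouts surrounded the controls on both sides (log2 fold change 0.19, 95% interval -0.29 to 0.67, adjusted p = 0.78). Knockout replicates 1 and 4, where Ccnd1 was highest, also had the highest summed level of the 8 hepatocyte markers, 18347 and 19997 CPM. The other knockouts had 11350 and 12337 CPM. The controls ran the other way: replicate 2, their highest in Ccnd1, had their lowest hepatocyte sum (8899 CPM). Control replicate 3, their lowest in Ccnd1, had their highest sum (15716 CPM). The part of hepatocyte RNA in the Ccnd1 level was not tested.

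The D cyclins summed to 120, 113, 114 and 109 CPM per kilobase in the knockouts, against 96.6, 97.6 and 96.0 in the controls. All knockouts lay above all controls, which differed little from each other. Ccnd3, the largest part of the sum, lay apart by itself, so the sum is not a separate result. Ccnd3 made up 78.5 ± 4.0% of that sum in the knockouts and 78.1 ± 2.9% in the controls (SD), and Ccnd2 15.6 ± 2.5% and 15.7 ± 2.5%, so the make-up of the D cyclins moved by less than its spread. The ratio of Ccnd3 to Cdk6 per kilobase was 5.06 to 7.67 in the knockouts and 2.93 to 4.18 in the controls. That ratio could not overlap, since Ccnd3 was higher and Cdk6 lower in every knockout than in every control.

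**Figure D2:**
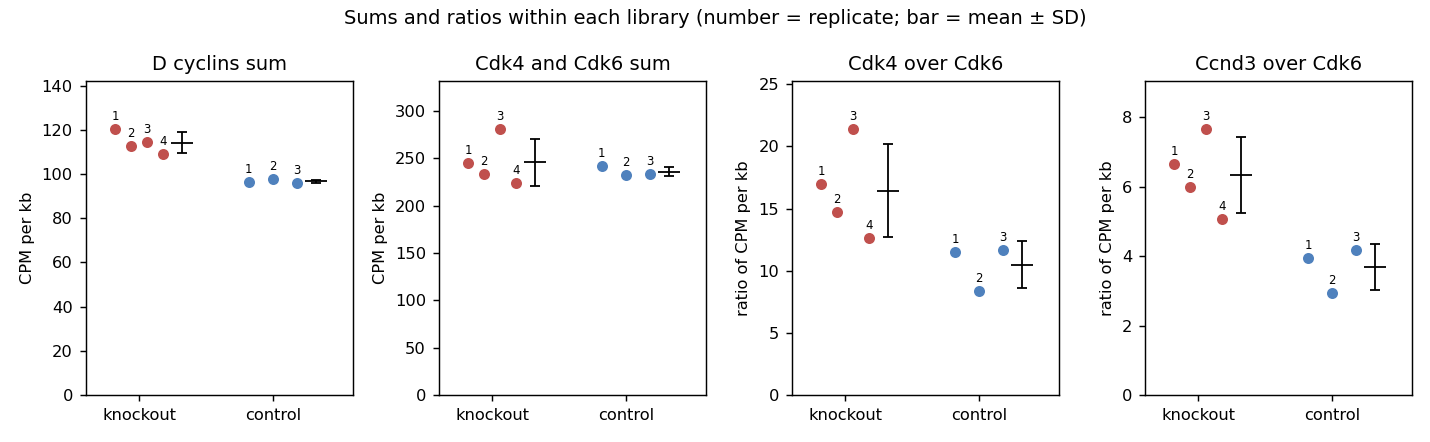
Sums of levels per kilobase (2 left panels) and ratios of such levels (2 right panels) within each library, with knockouts in red on the left and controls in blue on the right, replicate numbers beside the points and bars for the mean ± SD. The D cyclin sum is 109 to 120 in the knockouts and 96.0 to 97.6 in the controls, and the kinase sum overlaps between the groups.

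The inhibitors all overlapped between the groups. Among the INK4 genes, Cdkn2c, whose product limits division of stem cells and B cells, had 8.95, 10.6, 9.37 and 10.7 CPM in the knockouts, against 9.95, 8.85 and 11.7 CPM in the controls (log2 fold change -0.03, 95% interval -0.37 to 0.30, adjusted p = 0.96). Cdkn2d, induced as cells stop dividing, had 23.2, 32.4, 22.2 and 25.9 CPM in the knockouts, against 21.2, 29.3 and 23.0 CPM in the controls (0.08, interval -0.28 to 0.45, adjusted p = 0.88). Replicate 2 was the highest Cdkn2d library in each group. The other INK4 genes, Cdkn2a and Cdkn2b, were close to undetected: Cdkn2a had 0, 0, 1 and 0 reads in the knockouts and 0, 2 and 0 in the controls, and Cdkn2b had 1, 2, 5 and 3 reads in the knockouts and 1, 0 and 3 in the controls.

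Cdkn1b had the narrowest spread of the inhibitors. It had 32.1, 32.4, 35.7 and 34.9 CPM in the knockouts, against 37.6, 36.8 and 34.0 CPM in the controls, and 2 knockouts lay below all controls. The log2 fold change was -0.10 (95% interval -0.29 to 0.10, adjusted p = 0.73), so a fall to under 0.815 of control lies outside the interval. Cdkn1a, a target of p53, had 8.29, 8.89, 8.52 and 5.40 CPM in the knockouts, against 8.33, 8.06 and 5.88 CPM in the controls (log2 fold change 0.07, interval -0.41 to 0.54, adjusted p = 0.94). Both groups held 1 low library, and the rest lay close together.

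Cdkn1c, an imprinted gene expressed from the maternal allele and needed for stem cell quiescence, had 70.9, 76.5, 75.6 and 116 CPM in the knockouts, against 82.8, 74.7 and 111 CPM in the controls. Its level ran opposite to that of Cdkn1a through 2 libraries: knockout replicate 4 and control replicate 3, highest in Cdkn1c, were lowest in Cdkn1a. Among the remaining libraries of each group, Cdkn1c and Cdkn1a rose together. The log2 fold change of Cdkn1c was -0.08 (95% interval -0.51 to 0.35, adjusted p = 0.91), and without control replicate 3 it was 0.11. The hepatocyte markers were highest within their groups in the same 2 libraries, at 19997 CPM in knockout replicate 4 and 15716 CPM in control replicate 3. Knockout replicate 1, lowest in Cdkn1c, had 18347 CPM of these markers. Their part in the Cdkn1c level was not tested. Per kilobase Cdkn1c made up 80.4 ± 3.8% of the CIP/KIP transcripts in the knockouts and 80.8 ± 4.2% in the controls (SD, n = 4 and 3).

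**Figure D3:**
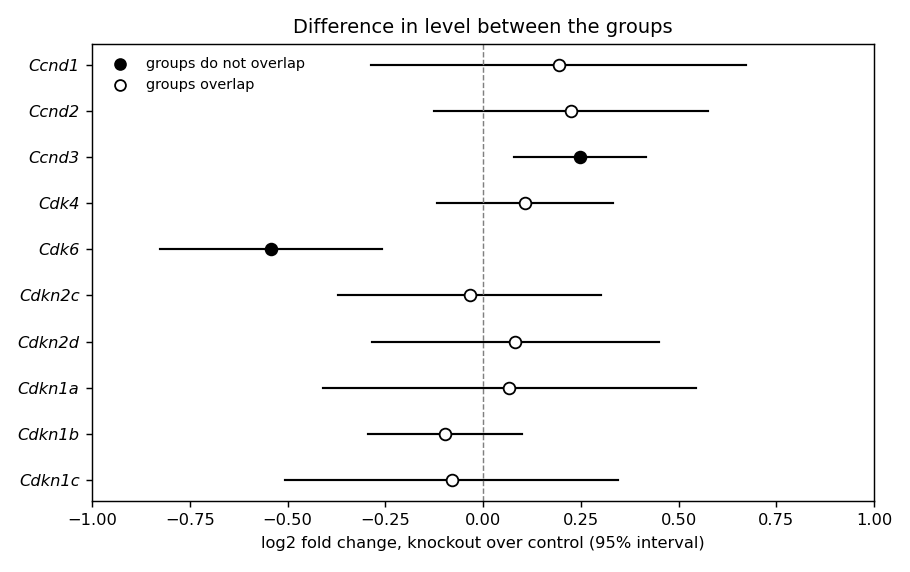
Log2 fold change of each gene, knockout over control, with its 95% interval from edgeR. Filled points mark genes whose groups do not overlap. The intervals of Cdk6 (-0.83 to -0.26) and Ccnd3 (0.08 to 0.42) leave out 0, and those of the other 8 genes hold it.

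Per kilobase of exon the order of levels was nearly the same in both groups. In the knockouts Cdk4 (231 CPM per kilobase) stood above Ccnd3 (89.6) and Cdkn1c (43.6), followed by Ccnd2 (17.8), Cdkn2d (17.6), Cdk6 (14.3), Cdkn1b (7.42), Ccnd1 (6.81), Cdkn2c (3.69) and Cdkn1a (2.86). In the controls Cdk6 (20.9) came 4th, before Cdkn2d (16.6) and Ccnd2 (15.2), and the others kept their places, from Cdk4 (215), Ccnd3 (75.5) and Cdkn1c (46.1) down to Cdkn1b (7.94), Ccnd1 (5.95), Cdkn2c (3.79) and Cdkn1a (2.73). Of these 3 genes, neighbours in the order overlapped within each group, so their order is within the spread, except that Cdk6 lay above Ccnd2 in every control (18.5 to 24.9 against 13.1 to 18.0). Cdkn1b and Ccnd1 overlapped in the knockouts and not in the controls, and all other neighbours were apart in both groups. Lengths are the summed GENCODE exons, from 1475 bases for Cdkn2d to 11525 for Cdk6. If the cells use shorter transcripts, the level of such a gene per kilobase is understated. Taking the longest coding transcript instead left each gene at its place.

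**Figure D4:**
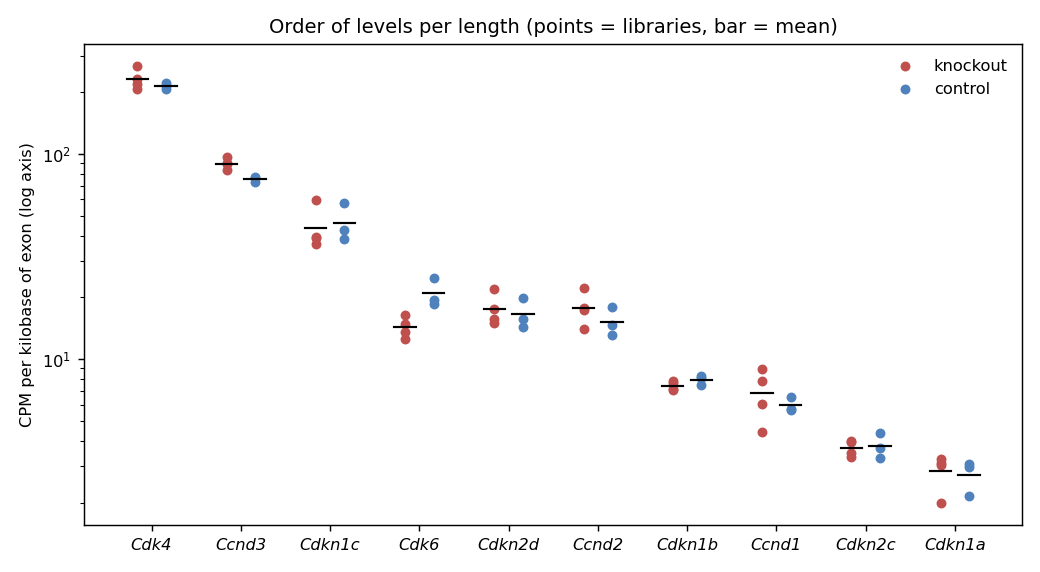
Level per kilobase of exon in each library on a log axis, knockouts in red left of controls in blue, with genes in the order of their control means. Bars are means. Cdk6 is 4th in the controls at 20.9 CPM per kilobase and 6th in the knockouts at 14.3.

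Summed markers of several cell types lay apart between the groups, though single markers passed the test in the neutrophil list alone. In a bulk sample fewer cells of a type and less RNA per cell cannot be told apart. The 9 neutrophil markers, all lower with 6 called, summed to 1214 to 2591 CPM in the knockouts and 3991 to 7079 CPM in the controls. Of all tested genes 0.545% were called lower. The 10 macrophage markers, all lower and none called, summed to 81.7 to 161 and 223 to 305 CPM in knockouts and controls. The 8 stem and progenitor markers, 6 of them lower and none called, summed to 248 to 353 CPM in the knockouts and 372 to 500 CPM in the controls. Most of that sum is Kit, the stem cell factor receptor, at 194 ± 24 CPM in the knockouts and 293 ± 24 CPM in the controls (SD; log2 fold change -0.59, adjusted p = 0.056), the 1 marker of the list whose groups did not overlap. The median log2 fold change of the 8 was -0.07, and their mean log2 CPM overlapped, at 2.84 to 3.41 in the knockouts and 2.91 to 3.62 in the controls. Of the 11 erythroid markers 10 were higher, none called, with sums of 3720 to 5214 and 2028 to 3571 CPM in knockouts and controls. Control replicate 2, where Cdk6 was highest, also had the highest neutrophil and progenitor sums and the lowest erythroid sum. The neutrophil sum ran the other way among the knockouts: replicate 3, lowest in Cdk6 (144 CPM), had their highest neutrophil sum (2591 CPM). It also had their highest erythroid sum (5214 CPM). Knockout replicate 4, their highest in Cdk6, had their highest progenitor sum (353 CPM) and lowest erythroid sum (3720 CPM). No marker of any list was at 0 in any library. The other sums overlapped between the groups, with no marker called: in knockouts and controls 11350 to 19997 and 8899 to 15716 CPM for hepatocytes (8 of 8 higher), 501 to 1255 and 738 to 1357 CPM for megakaryocytes (3 of 7 higher), 91.1 to 128 and 104 to 180 CPM for endothelium (7 of 7 lower) and 19.1 to 87.8 and 18.1 to 51.6 CPM for stroma (6 of 7 higher). The part of cell composition in the levels of Cdk6 and Ccnd3 was not tested.

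Downstream of the D cyclins, none of the 26 tested genes among 28 other G1/S genes passed, with 15 higher and 11 lower and a median log2 fold change of 0.03. Ccne1, the cyclin E that activates CDK2 after the D cyclins, had 171, 150, 154 and 131 CPM in the knockouts, against 127, 89.3 and 111 CPM in the controls. All knockouts lay above all controls, and the log2 fold change was 0.47 (SE 0.13, adjusted p = 0.18). E2f2, an E2F activator high in erythroid precursors, averaged 81.7 ± 6.2 CPM in the knockouts and 66.8 ± 9.1 CPM in the controls (SD; 0.29, adjusted p = 0.36). The repressors E2f8 (log2 fold change 0.14, adjusted p = 0.50) and E2f6 (0.15, adjusted p = 0.54) had smaller log2 fold changes. The groups of E2f8 did not overlap, while those of E2f2 and E2f6 did. Of the 26 tested genes 3 had groups that did not overlap, where 11.2% of all tested genes had such groups.

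The 24 replication and mitosis genes lay close to 0. None passed, 17 were higher and 7 lower, no gene's groups were apart, and the median was 0.05. Their summed level was 7539 to 8402 CPM in the knockouts and 7416 to 8200 CPM in the controls. Of the genes with the smallest p, Ccnb1, the mitotic cyclin, had a log2 fold change of 0.13 (adjusted p = 0.64), the helicase subunit Mcm3 0.13 (0.66), the mitotic kinase Plk1 0.10 (0.68) and the origin licensing factor Cdt1 -0.11 (0.68).

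Of 30 quiescence regulators, 1 fell and 29 did not pass, where 0.545% of all tested genes fell. The one that fell was Gfi1, a repressor that restrains stem cell division and is needed for granulocytes, with 14.8, 12, 16.3 and 14.6 CPM in the knockouts, against 32.2, 59.9 and 41.0 CPM in the controls (log2 fold change -1.62, SE 0.20, adjusted p = 0.0097). Without knockout replicate 2 its log2 fold change was -1.54 and the call was lost (adjusted p = 0.051, the highest of the alternatives, which reached down to 8.6e-12 with DESeq2). The neutrophil sums given above moved the same way, and their part in the Gfi1 level was not tested.

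Myc, which drives Cdk4 and Ccnd2 in many cells, had 165, 165, 162 and 169 CPM in the knockouts, against 186, 185 and 175 CPM in the controls. The groups did not overlap, but the difference was small (log2 fold change -0.14, 95% interval -0.28 to 0.01, adjusted p = 0.50). Hes1, a Notch target, averaged 5.50 ± 1.08 CPM in the knockouts and 3.55 ± 0.55 CPM in the controls (0.63, adjusted p = 0.33), and Gata2, a stem and progenitor factor, 87.9 ± 13.3 and 62.4 ± 22.7 CPM in knockouts and controls (SD; 0.49, adjusted p = 0.45). The list median was -0.05.

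Cdkn1a is best known as a p53 target, so the other p53 targets were set beside it. None of 15 tested genes of 16 passed, with 10 higher, 5 lower and a median of 0.04. Pmaip1, which codes for the death protein NOXA, averaged 6.53 ± 0.88 CPM in the knockouts and 10.5 ± 3.1 CPM in the controls (SD; log2 fold change -0.68, adjusted p = 0.28). Perp, a cell junction gene, was at 0.33 (adjusted p = 0.45), Phlda3, an AKT inhibitor, at 0.45 (0.48) and the kinase Plk3 at 0.41 (0.51).

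**Figure D5:**
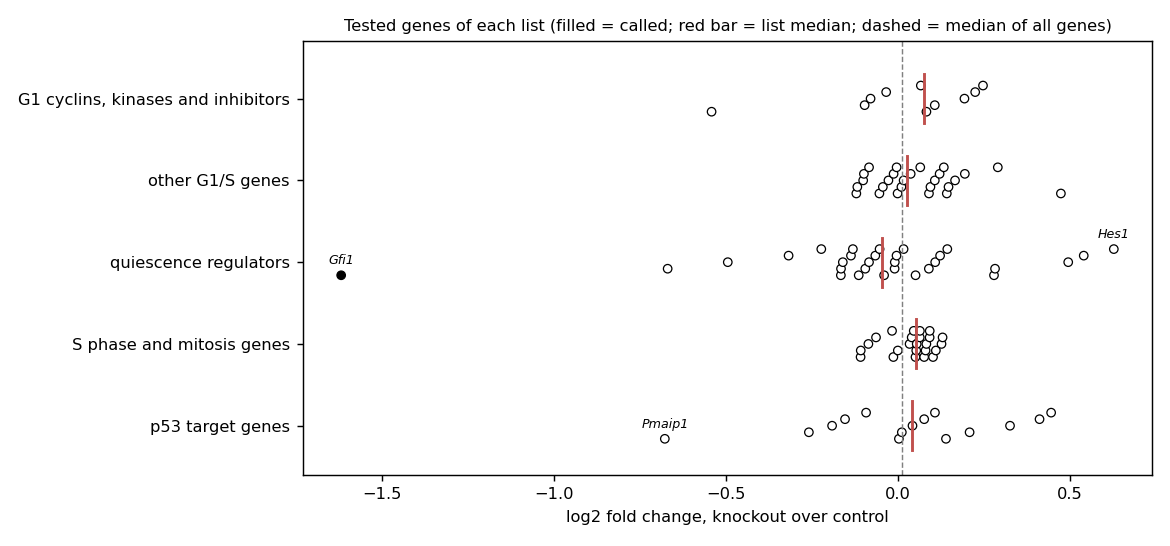
Log2 fold change, knockout over control, of every tested gene in 5 lists, with called genes filled, list medians in red and the median of all tested genes dashed. Gfi1 at -1.62 is the one called gene, and list medians lie between -0.05 and 0.07.

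Some of these genes share exonic sequence with a gene on the opposite strand. The libraries came from a stranded kit, but the strand setting of the counting is not given, so such reads cannot be placed with certainty. Shared exons with coding genes came to 641 bases for Cdk4 (with Tspan31), 361 for Ccnd3 (with Bysl) and 1100 for Ccnd1 (with LTO1). Shared exons with other transcripts came to 589 of 1942 bases for Cdkn1c (with Gm44732), 372 of 6711 for Ccnd2 (with Gm43126), 273 of 2718 for Cdkn1a (with AC167363.2) and 110 of 11525 for Cdk6 (with Gm17590).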

How the data were processed

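RNA was measured in 7 libraries, 4 knockout and 3 control. The main file deposited by the authors gives unnormalized counts, 1 row a symbol. Their DESeq2 table, per the file headers, holds log2 fold changes with standard errors, a test score, raw and adjusted p-values, and a normalized signal (size-factor scaled counts). HISAT2, featureCounts, DESeq2 and mm10 are named in the submitters' processing notes; versions, annotation, strand setting and multimapping rule are not given in the sources used.

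After filterByExpr and TMM scaling, edgeR 4.0.16 (R 4.3.3) fitted its quasi-likelihood model to all 7 libraries, with no term besides group. Levels are shares of the TMM-scaled full library total. Intervals are at 95% and use the fit's standard error. Correlations across libraries used log2 CPM with a prior count of 2, after each group's mean was removed.

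The genes and lists were chosen with earlier results of these data known. Named are the 10 genes, Brd9, of each of 4 pathway lists all called genes and the 4 with the smallest p, and genes most alike to the 3 members with the smallest p; 1 gene under this rule is not reported here. Alternatives were DESeq2 size factors, total counts, no filter, a mean of at least 1 CPM, DESeq2 1.42.0, limma-voom (limma 3.58.1), a replicate block, the Xist level as covariate and each library left out. No library looked deposited more than once: those of 1 group differed by more than counting noise (chi-square per degree of freedom 8.5 to 42.0), which does not show whether they are biological replicates. Gene positions and lengths came from GENCODE M21 on GRCm38, the assembly that mm10 names.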

Additional observations from a re-analysis of the deposited data

Results flagged for a closer look

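Among the 4 knockout libraries, 1 library stood apart from the other 3 for 5 of 37 values checked, by Dixon's test at the 95% level; chance gives about 1 in 20. Groups of 3 were not checked. Knockout replicate 4 accounts for 4 of these values, which are not independent of each other. Its Cdkn1a level was 5.40 CPM, beside 8.29 to 8.89 CPM in the other knockouts, and only just passed the limit. Its Cdkn1c level was 116 CPM, beside 70.9 to 76.5 CPM. The sum of the CIP/KIP genes per kilobase was 69.3 there, beside 46.6 to 49.9, and the share of Cdkn1c in it 86.1%, beside 78.0 to 79.1%. Knockout replicate 1 stood apart in Gata2, at 68.1 CPM beside 92.3 to 95.9 CPM in the other knockouts.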

How the results depend on the processing

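The number of the 10 genes called was 0 in all fits but 3. It was 1, Cdk6, with no filter (log2 fold change -0.55, adjusted p = 0.032), where 0.937% of all genes were called. DESeq2 also called Cdk6 (-0.54, adjusted p = 0.0095), where it called 2.19% of all genes. So did the fit with the replicate block (-0.60, adjusted p = 0.034), where 0.824% were called. Knockout replicate 4, the knockout with the highest Cdk6 (189 CPM), has no control of its number and adds nothing to the group difference in the block fit. Without that library and with no block, the log2 fold change of Cdk6 was -0.61 (edgeR adjusted p = 0.13). Cdk6 was lower and Ccnd3 higher in all 16 alternatives. The groups did not overlap in either gene and the alternatives refit the same libraries, so these signs could hardly change. Leaving out single libraries gave log2 fold changes of -0.62 to -0.40 for Cdk6 and 0.21 to 0.28 for Ccnd3, and 0 called of the 10 in each case. The other 8 genes were not called in any alternative. Without single libraries 4 of them took either sign: Cdkn1a ran from -0.076 to 0.21, Cdkn1c from -0.27 to 0.11, Cdkn2c from -0.13 to 0.079 and Cdkn2d from -0.044 to 0.23. The other 4 kept theirs: Ccnd1 ran from 0.033 to 0.35, Ccnd2 from 0.099 to 0.36, Cdk4 from 0.027 to 0.16 and Cdkn1b from -0.14 to -0.065. Cdkn2c was also higher, at 0.067, with the Xist level as covariate. Cdkn1b stayed lower and Cdk4, Ccnd1 and Ccnd2 higher in all 16, down to 0.0036 for Cdk4 without control replicate 2 and knockout replicate 3, an alternative chosen after seeing the data, and 0.0016 for Ccnd1 with the block.

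Genes called over the whole table numbered 228 with no filter, 382 with DESeq2, 52 with the Xist covariate and 130 without both of those libraries. Without single libraries there were 20 to 120, and fewer by over 1.5 times without knockout replicate 1 (51), 2 (21) or 4 (37) or control replicate 2 (49) or 3 (20). Of the quiescence regulators 0 to 1 was called without single libraries. With the replicate block 1 other G1/S gene was called, Ccne1 (0.55, adjusted p = 0.047), where 0 were without it. Libraries of the same number deviated together only for replicate 1 (correlation across genes 0.17, against -0.02 and -0.01 for replicates 2 and 3), so the numbers were not taken to pair the samples. The cause of these shifts was not tested. The lowest of the 10 genes, Cdkn1a, had 111 to 197 reads in the knockouts and 128 to 195 in the controls, and its interval spans 0.752 to 1.46 of control.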

Other observations

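Within groups, libraries differed together in several pairs of these genes. After each group's mean was removed from log2 CPM, Pearson's r over the 7 libraries ran from -0.96 for Cdkn1a with Cdkn1c to 0.92 for Ccnd3 with Cdk4, with a median of -0.14 over 45 pairs. The value for Cdkn1a with Cdkn1c rests on knockout replicate 4 and control replicate 3, and both genes rose together among the remaining libraries of each group. Ccnd3 ran opposite to Cdk6 (-0.88) and to Ccnd1 (-0.87). These are descriptions over few libraries that share depth and cell composition.

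Among the genes most alike to Cdk6 in this way, out of 10056 others that averaged 5 CPM or more, were the lipid transfer gene Osbpl8 and the histone deubiquitinase Mysm1, each with r = 0.99. Osbpl8 averaged 67.1 CPM in the knockouts and 79.1 CPM in the controls. For Ccnd3 they were Nudt5, Syf2 and Nsa2, with r of 0.998, 0.997 and 0.997, and for Ccnd2 they were Pptc7 (0.99), Akap12 (0.99) and Bcl2l2 (0.98). None of these most alike genes was called between the groups (lowest edgeR adjusted p = 0.53, for Nudt5). As the highest among 10056 genes over 7 libraries, such r values are high by selection, and shared control was not tested.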
